A study of Mus musculus with 20 samples.

Results

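The lymphoid homing and trafficking receptors described here are the products of 8 genes out of 31053 in each matrix: Cxcr4, Cxcr5, Ccr7, Ccr6, Cxcr3, S1pr1, S1pr4 and Gpr183. They were chosen by name, with earlier results of these data known, and all 8 were measured. Lymphocytes use G protein-coupled receptors of this kind to find their place in lymphoid tissue. The chemokine receptors read gradients of small secreted proteins: Cxcr4 binds Cxcl12 and retains cells in marrow and in the dark zone of germinal centres, Cxcr5 binds Cxcl13 and leads B cells into follicles, and Ccr7 binds Ccl19 and Ccl21 and leads cells into the T cell zone. Ccr6 is the receptor for Ccl20, and Cxcr3, the receptor for Cxcl9 and Cxcl10, is best known on effector T cells. S1pr1 and S1pr4 sense sphingosine-1-phosphate, with S1pr1 driving exit from lymphoid organs into blood, and Gpr183 (EBI2) binds an oxysterol and draws activated B cells to the outer follicle.

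Single-cell RNA-sequencing data came from unselected live cells of 13 mice, in 20 libraries. The labels give the strain as C57BL/6N, while the study's methods name C57BL/6J for the Eµ-TCL1 mice used in the cross. Spleens numbered 5 for Eµ-PRMT5, 4 for Eµ-TCL1 and 4 for Eµ-PRMT5/TCL1. Sub-mandibular lymph nodes numbered 3 for Eµ-TCL1 and 4 for Eµ-PRMT5/TCL1, and all 7 came from mice whose spleens were also measured. The transgenes are human cDNAs, PRMT5 (an arginine methyltransferase) and TCL1 (an oncogene), put under an immunoglobulin heavy chain promoter and the Eµ enhancer, which act in B cells; Eµ-PRMT5/TCL1 mice carry both. All mice were sampled when disease met the criteria for early removal, ages are not in the labels, and no library of a mouse without a transgene was analysed here. Each mouse gave at most 1 library per tissue, so p-values measure the spread between mice. Eµ-PRMT5 spleen 3 carries in its title the number of a founder animal of that line.

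Total UMIs (unique molecular identifiers, 1 per captured RNA molecule) lay between 9348094 and 72440894 per library. Of 87142 kept cells, 31639 passed the B gate (at least 3 Cd79a and Cd79b UMIs, no Cd3 UMI, under 20 Jchain UMIs) and 31143 the T gate (at least 2 Cd3 UMIs, under 3 Cd79 UMIs). The summed level of 8 further B cell markers (Ms4a1, Pax5 and others) was 481 to 4619 CPM in B cells (CPM are UMIs of a gene scaled to a fixed total for the class) and 131 to 335 CPM in T cells, and that of 8 T cell markers was 13.2 to 205 CPM in B cells and 1403 to 3609 CPM in T cells. One library stood apart: in Eµ-PRMT5 spleen 4 the B cell marker sum was 481 CPM against at least 1784 CPM in each of the others, the median B cell held 16783 UMIs, and only 57 T cells were found. Summed markers of neutrophils (S100a8, Mpo and 4 others) ran from 0 to 3346 CPM in B cells, highest in Eµ-PRMT5/TCL1 lymph node 3, and from 0 to 6977 CPM in T cells, highest in Eµ-PRMT5 spleen 4. Those of NK cells stayed at or below 4.07 CPM in B cells and ran from 177 to 592 CPM in T cells. The part of such RNA in the levels below was not tested. No pair of libraries shared more than 1.31% of the smaller one's cell barcodes, and the largest excess over the number that chance gives was 11.7 barcodes.

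The promoters of Ccr6 and Cxcr3 are printed because Cxcr3 had the largest fitted difference between B and T cells among the members, and Ccr6 the largest between Eµ-PRMT5 and Eµ-TCL1 spleens. Each is the 250 bases before a RefSeq start on GRCm38.p6, 5′ to 3′ in the direction of the gene, and capitals mark matches to 2 of the 4 motifs searched. Ccr6 lies at chr17:8235793-8236042 (plus strand) and Cxcr3 at chrX:101734148-101734397 (minus strand). Ccr6 has a second RefSeq window, at chr17:8242276-8242525 (plus strand), which held none of the motifs and is not printed.
Ccr6: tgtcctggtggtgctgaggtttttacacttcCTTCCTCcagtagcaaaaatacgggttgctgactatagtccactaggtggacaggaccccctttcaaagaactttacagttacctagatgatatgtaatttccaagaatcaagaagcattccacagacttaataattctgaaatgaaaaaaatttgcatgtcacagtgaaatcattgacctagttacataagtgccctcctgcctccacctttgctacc
Cxcr3: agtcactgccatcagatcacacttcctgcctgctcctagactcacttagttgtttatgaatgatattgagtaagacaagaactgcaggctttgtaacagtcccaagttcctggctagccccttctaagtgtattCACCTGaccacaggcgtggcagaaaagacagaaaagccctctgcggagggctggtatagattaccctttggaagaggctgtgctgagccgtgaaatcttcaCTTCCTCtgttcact
The motifs searched on both strands were GAGGAAG (ETS, the CTTCCTC of both genes), CACCTG (E-box, in Cxcr3), TCACACC (T-box) and CCACACCC (KLF), none of which contains another. Of 32851 windows of the same length, 10.6% held the ETS motif, 17.2% the E-box, 3.33% the T-box and 3.20% the KLF motif. Windows were found for 5 of the 8 members (also Cxcr4, S1pr4 and Gpr183), none of the 6 windows held the T-box or KLF letters, and a match or its lack is a description of these letters only.

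B and T cells of the same library differed in almost every receptor. Cxcr5 was higher in B cells in 13 of 13 spleens and 7 of 7 lymph nodes, and Cxcr3 and Gpr183 were higher in T cells in all 20 libraries. Of the 8 members, edgeR called 7 in spleens (2 higher and 5 lower in B cells) and 8 in nodes (2 higher and 6 lower), at an adjusted p under 0.05. Most genes differ between these classes, and 59.7% of 13162 genes tested in spleens and 51.7% of 12309 in nodes were called (31% higher and 28.7% lower in spleens, 25.6% and 26.1% in nodes), and the members' count is read against those shares. At an unadjusted p under 0.05 the shares were 63.5% and 57.5%. The members' median change was -0.69 (log2) in spleens against 0.01 over all genes, and -1.13 against -0.01 in nodes. A level is a sum over all cells of a class, so fewer cells with the RNA and less RNA per cell cannot be told apart from it; the share of cells with a UMI is given beside it where it matters.

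Cxcr5, the follicle receptor, had a median of 141 CPM (range 21.1 to 331) in B cells and 13.9 CPM (4.48 to 60.1) in T cells of the 13 spleens. In nodes it had a median of 113 CPM (71.0 to 151) in B cells and 20.3 CPM (11.3 to 24.3) in T cells, so that the ranges of the classes did not overlap there. The fitted B minus T change was 2.82 ± 0.29 (log2 ± SE, adjusted p = 5.11e-07, edgeR) in spleens and 2.43 in nodes. The median share of cells with a Cxcr5 UMI, taken over the libraries for each class on its own, was 49.8% in B cells and 7.53% in T cells. After each cell was thinned to 1000 UMIs the medians were 11.2% and 1.85%. Granule-bearing myeloid cells, which should lack this receptor, held it in a median of 0.215% unthinned and 0% thinned. T cells lay below the free RNA of their own library (droplets of 10 to 100 UMIs) for Cxcr5 in 19 of 20 libraries and B cells in 1 of 20.

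Ccr6 was the other member higher in B cells, at 3.42 ± 0.58 (adjusted p = 0.000146, edgeR) in spleens and 2.18 in nodes (adjusted p = 0.0388). The call in nodes did not hold with a stricter gate (adjusted p = 0.0507, edgeR) or when any 1 of several nodes was left out (up to 0.119). Its level was uneven: B cells held more than T cells in 10 of 13 spleens and 5 of 7 nodes, with medians in spleens of 0.817 and 0.110 CPM. The whole series held 1246 Ccr6 UMIs in B cells and 105 in T cells, and 1092 of the B cell UMIs were in the 5 Eµ-PRMT5 spleens. Of the T cell UMIs, 32 were in cells of the Cd4 gate, 12 in cells of the Cd8 gate and 61 in the 4946 T cells with UMIs of neither or of both. The Ccr6 level of T cells lay below free RNA in 14 of 20 libraries.

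Cxcr3 marked the T cells. In spleens it had a median of 101 CPM (14.9 to 198) in T cells and 0.149 CPM (0 to 7.77) in B cells, and in nodes 118 CPM (63.8 to 313) and 0.126 CPM (0 to 2.03). The ranges of the classes did not overlap in either tissue. The fitted change was -7.43 ± 0.54 (adjusted p = 1.11e-08, edgeR) in spleens and -8.96 in nodes; since many B cell libraries held 0 to 3 Cxcr3 UMIs, these sizes depend on the fit's prior count. Droplets of 10 to 100 UMIs, which hold free RNA, carried Cxcr3 at 4.41 to 59.6 CPM, and B cells lay below the droplets of their own library in 20 of 20 libraries.

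Ccr7, the T zone receptor, and Gpr183, the oxysterol receptor, were lower in B than in T cells. Ccr7 had medians in spleens of 155 CPM in B and 550 CPM in T cells (-1.16 ± 0.40, adjusted p = 0.0215, edgeR), but B cells were the higher class in Eµ-PRMT5 spleens 1, 3 and 4. Its change in nodes was -1.12, with T cells higher in 6 of 7. Gpr183 had medians in spleens of 48.2 and 98.3 CPM (-1.44 ± 0.29, adjusted p = 0.000477) and in nodes of 31.1 and 103 CPM (-1.58). Cxcr4, the retention receptor, was lower in B cells by 0.80 ± 0.23 on the log2 scale in spleens (adjusted p = 0.00733) and by 1.14 in nodes, where T cells were higher in 7 of 7. For both Cxcr4 and Gpr183, B cells lay below the droplets of free RNA of their own library in 15 of 20 libraries. The same held for Ccr7 and S1pr1 in 9 of 20 each, and for Ccr6 and S1pr4 in 6 of 20.

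S1pr4, a sphingosine-1-phosphate receptor, was called lower in B cells of both tissues, and S1pr1, the exit receptor, in nodes. S1pr1 was lower in B cells of nodes at -1.68 ± 0.33 (adjusted p = 0.00175, edgeR), with 82.3 CPM in the median B library and 177 CPM in the median T library, and the classes differed in the same direction in 7 of 7. In spleens its change was -0.39 ± 0.27 (adjusted p = 0.218), and B cells were higher in 4 of 13. Whether the class difference itself differed between tissues was not tested. S1pr4 was lower in B cells in spleens (-0.58, adjusted p = 0.0247, edgeR) and nodes (-0.79, adjusted p = 0.0219). The call in spleens did not hold without Eµ-TCL1 spleen 1 (adjusted p = 0.0543, edgeR). That in nodes did not hold when any 1 of several nodes was left out (up to 0.0605). Myeloid cells carried S1pr4 in a median of 47.2% and Cxcr4 in 36.0% of cells, so they serve as a background for neither.

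Without the library as a block, 3 members were called in spleens (Cxcr5, Cxcr3 and Gpr183) among 4999 of 10673 genes, Ccr6 did not pass the filter on low counts of that fit, and leaving out Eµ-TCL1 lymph node 1 or Eµ-PRMT5/TCL1 lymph node 4 left 5 of 8 called in nodes, among 5711 of 12079 and 5387 of 11883 genes. Ccr6, Ccr7 and S1pr4 were the members lost in nodes in both cases.

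**Figure D1:**
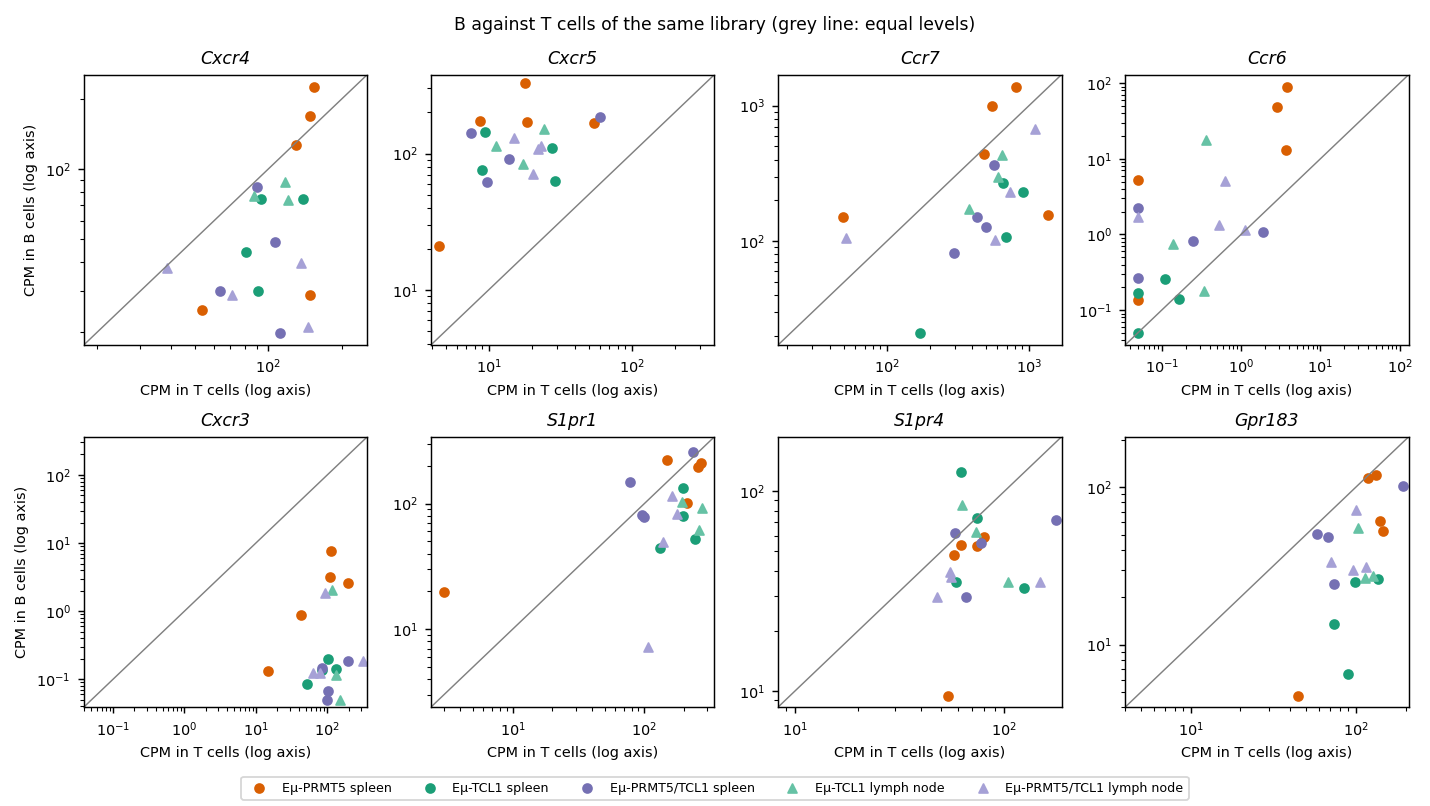
Level of each receptor in T cells (x axis, CPM, log scale) and in B cells (y axis, CPM, log scale) of the same library. Each point is 1 of 20 libraries, coloured by group, circles are spleens and triangles lymph nodes, the grey line marks equal levels, and levels under 0.05 CPM are drawn at 0.05. Every point for Cxcr5 lies above the line, and every point for Cxcr3 and Gpr183 below it.

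Within T cells, the levels were compared between cells of the Cd4 gate and of the Cd8 gate in the 14 libraries with at least 20 of each, as a description. These include both tissues of every Eµ-PRMT5/TCL1 mouse and of the mouse of Eµ-TCL1 node 1, so they are not 14 separate mice. Ccr7 was higher in Cd8 T cells in 12 of 14 libraries (medians 575 and 318 CPM) and Cxcr4 in 10 of 14 (117 and 70.9 CPM). Cxcr3 was higher in Cd4 T cells in 12 of 14 (157 and 97.1 CPM), and S1pr4 in 10 of 14. Medians for S1pr1 were 210 CPM in Cd4 and 172 CPM in Cd8 T cells, and those for Gpr183 were 108 and 107 CPM. In Eµ-TCL1 spleen 1 Ccr7 stood at 17.3 CPM in 877 Cd4 T cells and at 467 CPM in 678 Cd8 T cells.

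The other genes of the pathway were taken from 4 lists, and their B minus T changes ran both ways. Over all genes, 31% were called higher and 28.7% lower in spleens, and 25.6% and 26.1% in nodes. Among 18 further chemoattractant receptors 16 were tested in each tissue, and 4 were higher and 10 lower in B cells in both spleens and nodes. Those with the smallest p in spleens were Cxcr6 (-6.70), S1pr3 (6.89), Ccr8 (-7.28) and Ackr3 (7.74), and in nodes they included S1pr3 (8.06), Ccr1 (4.71) and Ccr8 (-6.07). S1pr3, another sphingosine-1-phosphate receptor, had a median of 23.2 CPM in B cells and 0.0385 CPM in T cells of spleens. Ackr3, a scavenger of Cxcl12, had 3.48 CPM in B cells and was at 0 in the median T library. Of 15 adhesion genes, all tested, 1 was higher and 7 lower in both tissues, among them Selplg, a ligand of selectins (-3.23 in spleens and -3.56 in nodes) and Itgal (-0.78 in spleens), with Ezr higher (1.09 and 0.75) and Itgae lower in nodes (-3.45).

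Of 24 signalling genes and regulators, all tested, 5 were higher and 9 lower in B cells of spleens, and 4 higher and 11 lower in nodes. The leading ones were the same 4 in both tissues: Arrb2, an arrestin that ends receptor signalling (-1.55 and -1.99), and the G protein regulators Rgs10 (-3.64 and -4.72), Rgs1 (-4.55 and -4.58) and Rgs2 (-2.22 and -2.14). Of 17 ligand and lipid enzyme genes 9 were tested in spleens (2 higher, 4 lower) and 6 in nodes (1 higher, 1 lower). Sgpl1, which degrades sphingosine-1-phosphate, was higher (1.29 and 1.26), as was its exporter Spns2 in spleens (3.97), and Cxcl10 (-2.89 and -2.73) and Cxcl9 (-2.41 in spleens), both ligands of Cxcr3, were lower. Medians in spleens were 0.0855 CPM in B and 0.279 CPM in T cells for Cxcl9, and 0.745 and 0 CPM for Spns2. The changes of Cxcl9 and Spns2 thus rest on levels near 0. Those of Ccr8, Cxcr6, Ackr3 and S1pr3 also rest on 1 class near 0. Medians in spleens were 0 CPM for Ccr8 and 0.578 CPM for Cxcr6 in B cells. In T cells they were 0 CPM for Ackr3 and 0.0385 CPM for S1pr3. Itgae in nodes had medians of 0.411 CPM in B and 3.11 CPM in T cells. In every comparison between genotypes, between tissues and between B cells of 1 library, edgeR called none of the tested genes of these 4 lists. It called at most 0.573% of all genes there, so few or no calls among so few genes are to be looked for.

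The comparison of Eµ-PRMT5 with Eµ-TCL1 spleens asks how B cells of mice with the PRMT5 transgene differ from those with the TCL1 transgene. The B gate does not separate disease cells from other B cells, so a level is that of both together. Ccr7 and Cxcr4 in B cells of Eµ-PRMT5 spleens 1 to 3 lay above all Eµ-TCL1 spleens, those of Eµ-PRMT5 spleens 4 and 5 did not, and edgeR called none of the 8 members (3 of 11608 genes, or 0.0258%, were called at all). At an unadjusted p under 0.05 it gave 4 members, against 1953 genes (16.8%). DESeq2 called 3 members and 644 genes. The members were Ccr6, Cxcr3 and Gpr183 (adjusted p = 5.96e-08, 0.00232 and 0.0475, DESeq2), so whether they are called depends on the method. Changes ran from -0.71 to 7.60, with a median of 1.35 over the members and 0.01 over all genes. The libraries of the groups overlapped for all 8 members, and did not for 4.9% of genes.

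Ccr6 gave the smallest p. It stood at 89.1, 13.2, 49.0, 0.134 and 5.21 CPM in Eµ-PRMT5 spleens 1 to 5, and at 0.140, 0.169, 0.257 and 0 CPM in Eµ-TCL1 spleens 1 to 4. The Eµ-TCL1 spleens held 10 Ccr6 UMIs in 9820 B cells, against 1092 in 4357 B cells of the Eµ-PRMT5 spleens. Eµ-PRMT5 spleens 1, 2, 3 and 5 lay above the Eµ-TCL1 spleens and spleen 4 lay among them. The fitted change of 7.60 ± 1.496 (adjusted p = 0.0869, edgeR) is set against a group near 0, depends on the prior count and is no bound. After thinning, Ccr6 UMIs were in 7.76%, 1.82%, 4.82%, 0% and 0.891% of B cells in Eµ-PRMT5 spleens 1 to 5 and in at most 0.0187% in an Eµ-TCL1 spleen. The unthinned shares in Eµ-PRMT5 spleens 1 and 3 were 28.2% and 15.1%.

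Ccr7 stood at 1377, 442, 1002, 150 and 155 CPM in Eµ-PRMT5 spleens 1 to 5 and at 21.1, 271, 230 and 107 CPM in Eµ-TCL1 spleens 1 to 4. Spleens 1 to 3 lay above the Eµ-TCL1 group and spleens 4 and 5 within its range. Ccr7 in free RNA stood at 107 to 1087 CPM in the Eµ-PRMT5 and 101 to 254 CPM in the Eµ-TCL1 group, and its part in the difference was not tested. The change was 1.82 ± 0.75 (adjusted p = 0.244, edgeR). Gpr183 stood at 115, 52.4, 119, 4.70 and 61.3 CPM against 13.5, 24.9, 6.50 and 26.2 CPM. Spleen 4 alone fell below the Eµ-TCL1 values, and the change was 1.82 ± 0.65 (adjusted p = 0.193). Free RNA held Gpr183 at 11.6 to 132 CPM over the 20 libraries, with B cells below that of their own library in 15. Its part in the Gpr183 difference was not tested.

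Cxcr4 stood at 168, 126, 225, 24.9 and 28.9 CPM against 29.9, 74.3, 43.9 and 74.2 CPM, so that Eµ-PRMT5 spleens lay on both sides of the Eµ-TCL1 group (0.87 ± 0.58, adjusted p = 0.469, edgeR). Cxcr5 at 0.65 ± 0.50, S1pr1 at 0.82 ± 0.53 and S1pr4 at -0.71 ± 0.45 had adjusted p of 0.535, 0.464 and 0.443. Cxcr3 reached at most 7.77 CPM in an Eµ-PRMT5 spleen, below the free RNA of that library, and its change of 4.06 ± 0.89 had an adjusted p of 0.109.

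The share of Ighv UMIs from 1 gene and single libraries moved with this pattern. The leading heavy chain V gene (Ighv) took 43.8%, 32.6% and 31.1% of the Ighv UMIs of B cells in Eµ-PRMT5 spleens 1 to 3, and 95.2% and 70.2% in spleens 4 and 5. This is a share of UMIs, not of cells: leading-V cells, as defined in the split by V gene, numbered 15 against 779 other-V cells in spleen 1, 11 against 229 in spleen 2 and 321 against 732 in spleen 3. Of the Eµ-TCL1 spleens, numbers 1, 2 and 4 had 94.3% to 99.9%, while number 3 had 38.0% with Ccr6 at 0.257 CPM. The count moved with single libraries: without Eµ-PRMT5 spleen 4, which had the low B cell marker sum, edgeR called 2 members, Ccr6 (adjusted p = 0.0118) and Gpr183 (2.12, adjusted p = 0.0419), among 232 genes. Without Eµ-PRMT5 spleen 5 it called Ccr6 alone (adjusted p = 0.0455) among 56 genes. The part of these facts in the result was not tested.

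**Figure D2:**
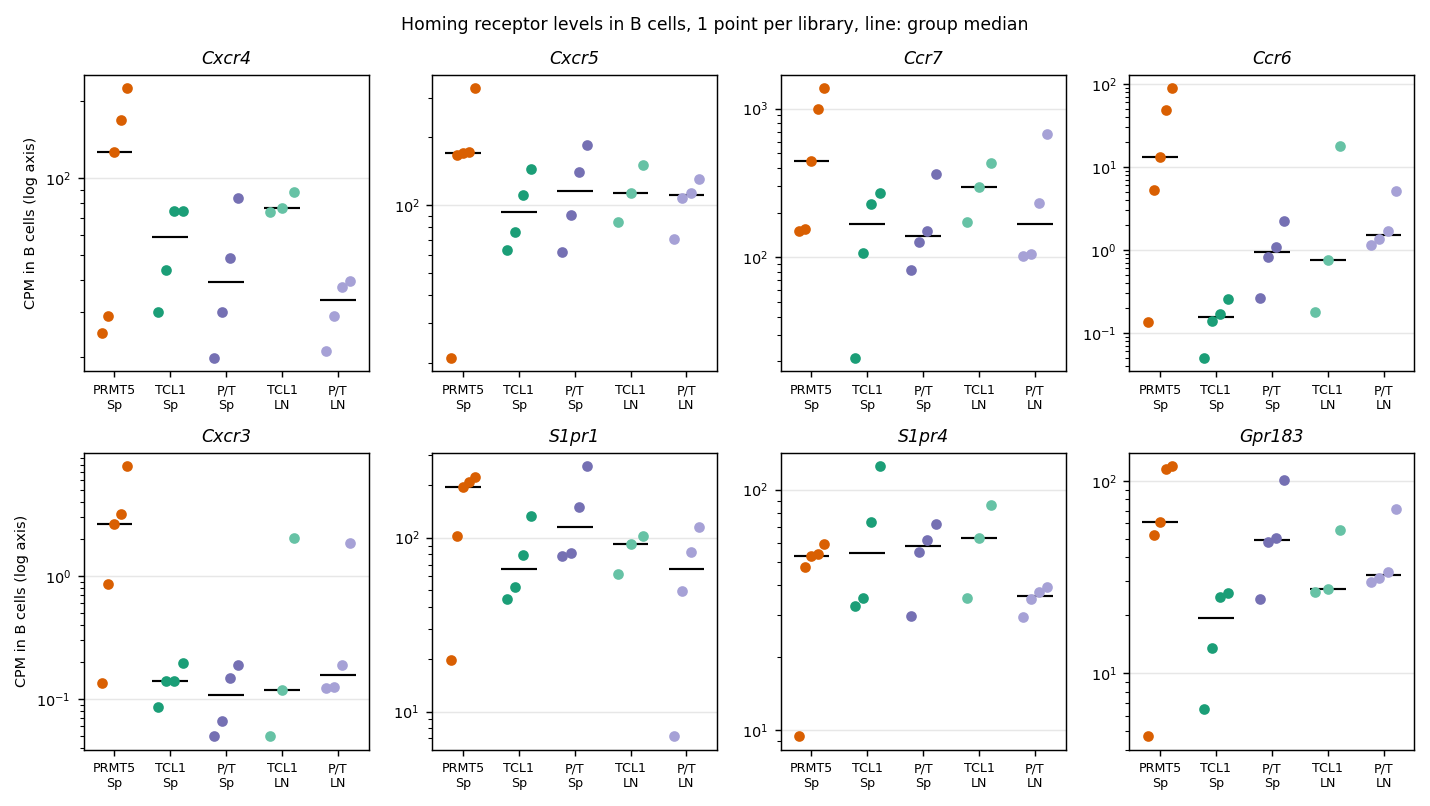
Level of each receptor in B cells (y axis, CPM, log scale) in the 5 groups (x axis; Sp is spleen, LN is lymph node, P/T is Eµ-PRMT5/TCL1). Each point is 1 library, the line is the group's median, and levels under 0.05 CPM are drawn at 0.05. Ccr6 in the Eµ-PRMT5 spleens runs from 0.134 to 89.1 CPM, while the 4 Eµ-TCL1 spleens stay at or below 0.257 CPM.

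Adding the PRMT5 transgene to TCL1 was compared in spleens and in nodes. In spleens edgeR called none of the 8 members and 1 of 11608 genes (0.00861%). Gpr183 and 537 genes (4.63%) had an unadjusted p under 0.05, and DESeq2 called 0 members and 20 genes. Gpr183 stood at 50.3, 48.2, 24.4 and 101 CPM in Eµ-PRMT5/TCL1 spleens 1 to 4 and at 13.5, 24.9, 6.50 and 26.2 CPM in Eµ-TCL1 spleens (1.49 ± 0.66, adjusted p = 1.00, edgeR). Gpr183 in free RNA stood at 36.0 to 85.3 CPM in the former and 29.1 to 43.2 CPM in the latter, above the B cells in every Eµ-TCL1 spleen, and its part in the difference was not tested. In B cells only Eµ-PRMT5/TCL1 spleen 3 fell within the Eµ-TCL1 range. Ccr6 did not overlap between the groups, at 0.266 to 2.21 CPM against at most 0.257 CPM, a gap of a few UMIs, and 3.15% of all genes tested did not overlap either.

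Against Eµ-PRMT5 spleens, Eµ-PRMT5/TCL1 spleens had lower fitted levels of Ccr7, Ccr6 and Cxcr3. They share the Eµ-PRMT5 libraries with the comparison above, so this is no separate evidence. None of the 8 members was called by edgeR, which called 0 of 11608 genes (1007 genes, 8.68%, and 3 members at an unadjusted p under 0.05), and DESeq2 called 2 members (Ccr6 and Cxcr3) and 103 genes. The fitted change was -1.80 ± 0.75 for Ccr7 (adjusted p = 0.540), -4.99 ± 1.28 for Ccr6 (adjusted p = 0.378) and -4.40 ± 0.93 for Cxcr3 (adjusted p = 0.330). The groups overlapped for all 8 members, and did not for 1.8% of genes.

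In lymph nodes the genotypes did not overlap in Cxcr4. It stood at 37.6, 28.9, 21.04 and 39.5 CPM in B cells of Eµ-PRMT5/TCL1 nodes 1 to 4 and at 76.6, 88.3 and 73.8 CPM in those of Eµ-TCL1 nodes 1 to 3. Each Eµ-PRMT5/TCL1 node lay below every Eµ-TCL1 node, and the groups did not overlap for 6.28% of the 10913 genes tested. The change was -1.24 ± 0.25 (adjusted p = 0.458, edgeR), which is not past the threshold; edgeR called 0 genes (737 genes, 6.75%, and 2 members at an unadjusted p under 0.05), while DESeq2 called 61 genes and 1 member, Cxcr4 (adjusted p = 0.00760). Free RNA moved with it: in the droplets of 10 to 100 UMIs of the same nodes Cxcr4 stood at 53.7 to 82.6 CPM in Eµ-PRMT5/TCL1 and 86.1 to 110 CPM in Eµ-TCL1 nodes, and its part in the difference was not tested. In T cells of the same nodes Cxcr4 stood at 38.4 to 146 CPM in Eµ-PRMT5/TCL1 and 87.1 to 121 CPM in Eµ-TCL1 nodes, and the groups overlapped. The S1pr4 difference was -0.76 ± 0.33 (adjusted p = 0.735), with 29.4 to 39.3 CPM in Eµ-PRMT5/TCL1 nodes and 35.3, 62.5 and 85.9 CPM in Eµ-TCL1 nodes. The other 5 members tested lay between -1.06 and 0.18, and Cxcr3 was too low to be tested.

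No receptor passed the test between genotypes in T cells. In the 4 genotype comparisons edgeR called none of the 8 members tested in spleens or the 7 in nodes, and DESeq2 called 0 as well. Background calls by edgeR were 4 of 11251 genes (0.0356%) for Eµ-PRMT5 against Eµ-TCL1 spleens and 0 for each of the other comparisons, with 6.18% of genes at an unadjusted p under 0.05 in that comparison, 7.13% for Eµ-PRMT5/TCL1 against Eµ-TCL1 and 4.89% against Eµ-PRMT5 spleens, and 14.1% in nodes. At that unadjusted threshold the members numbered 1 (Ccr6), 0, 1 (Ccr6, -3.62, adjusted p = 0.960, edgeR) and 1 (S1pr1) in the same order. DESeq2 called 28, 2, 8 and 127 genes. The groups overlapped for all 8 members in the spleen comparisons, and did not for 2.22%, 3.92% and 1.21% of genes. Ccr6 in Eµ-PRMT5 against Eµ-TCL1 spleens (4.25 ± 1.37, adjusted p = 0.787) rested on 69 UMIs in 8444 T cells against 3 in 5370. Of these 69, 24 were in Cd4 T cells, 11 in Cd8 T cells and 34 in the 1291 T cells with UMIs of neither or of both. S1pr1 was lower in T cells of each Eµ-PRMT5/TCL1 node (106 to 177 CPM) than in any Eµ-TCL1 node (192 to 272 CPM), and 9.78% of 10489 genes did not overlap. The change was -0.59 ± 0.23 (adjusted p = 0.313). Free RNA held S1pr1 at 15.9 to 151 CPM over the 20 libraries, with T cells below that of their own library in 3. Its part in the S1pr1 difference was not tested.

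Lymph node and spleen of the same mouse were compared in 7 mice, which asks whether cells that sit in a node carry other homing receptors than those in the spleen. Ccr7 and Ccr6 were higher in node B cells in 6 of 7 mice, S1pr1 and S1pr4 were lower in 5 of 7, and the other 4 members lay on both sides. None of the 8 members was called by edgeR with the mouse as a block (7 of 12406 genes, 0.0564%; 1425 genes, 11.5%, and 2 members at an unadjusted p under 0.05), and DESeq2 called 0 members and 291 genes. The members' median change was 0.07 and that of all genes 0.01.

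Ccr7 in B cells went from 21.1 to 174, 271 to 297 and 107 to 434 CPM from spleen to node in the 3 Eµ-TCL1 mice of nodes 1 to 3. In the 4 Eµ-PRMT5/TCL1 mice of nodes 1 to 4 it went from 362 to 105, 150 to 671, 127 to 232 and 82.1 to 102 CPM. The mouse of Eµ-PRMT5/TCL1 node 1 was the only one with less Ccr7 in the node. The fitted Ccr7 change over all these mice was 1.01 ± 0.46 (adjusted p = 0.436, edgeR). Free RNA held Ccr7 at 99.7 to 1087 CPM over the 20 libraries, with B cells below that of their own library in 9. Its part in the Ccr7 difference was not tested. The Ccr6 difference was 2.05 ± 0.80 (adjusted p = 0.363, edgeR), with 0.140 CPM in the spleen and 17.6 CPM in the node of the mouse of Eµ-TCL1 node 1, and at most 5.14 CPM in either tissue of the other mice. Some Ccr6 pairs barely differed, at 0 CPM in the spleen and 0.176 CPM in the node of the mouse of Eµ-TCL1 node 3. The mouse of Eµ-PRMT5/TCL1 node 2 had 1.07 and 1.13 CPM. In node 1 of Eµ-TCL1, B cells that carried mainly the leading heavy chain V gene of the library held Ccr7 at 26.4 CPM and Ccr6 at 0.976 CPM, and those with other V genes 645 and 67.6 CPM. The spleen of this mouse had 99.9% of its Ighv UMIs from the same gene, Ighv1-55. Cxcr5 (-0.00 ± 0.13) and Cxcr4 (0.04 ± 0.19) gave the smallest changes, and Gpr183 gave 0.11 ± 0.21.

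The S1pr4 difference was -0.41 ± 0.16 (adjusted p = 0.365, edgeR) and that of S1pr1 -0.78 ± 0.44 (adjusted p = 0.527). S1pr1 was far lower in the node in 2 mice, and the other 5 lay between -0.53 and 0.96 (difference of log2(CPM + 1)). B cells of Eµ-PRMT5/TCL1 lymph node 1 held 49.2 CPM and those of its spleen (spleen 4) 257 CPM, a difference of -2.36. B cells of Eµ-PRMT5/TCL1 lymph node 4 held 7.21 CPM and those of its spleen (spleen 2) 81.4 CPM, a difference of -3.33. In the mouse of node 4, UMIs of S1pr1 were in 2.87% of 1605 node B cells and 38.5% of 265 spleen B cells, and in 1.12% and 6.04% after thinning. Both tissues had the same leading V gene, Ighv5-9-1, with 99.9% and 99.5% of Ighv UMIs. T cells of that mouse held 106 CPM in the node and 96.6 CPM in the spleen. Klf2, the transcription factor known to drive S1pr1, stood at 360 CPM in the node and 395 CPM in the spleen in B cells of this mouse, and Cd69, whose protein removes S1pr1 from the surface, at 71.3 and 57.8 CPM. In the mouse of node 1 both were lower in the node, Klf2 at 360 against 1196 CPM and Cd69 at 57.5 against 267 CPM. Markers of other cells also differed within these pairs. B cells of node 4 and of its spleen had summed neutrophil markers of 0.122 and 2224 CPM and summed erythroid markers of 0.489 and 2374 CPM, the lowest and the highest erythroid sums of the 20 libraries. In node 1 and its spleen the neutrophil sums were 0.189 and 92.2 CPM. Free RNA also moved with S1pr1, at 15.9 CPM in node 4 against 62.6 CPM in its spleen and at 42.2 CPM in node 1 against 143 CPM in its spleen. The part of these values in the S1pr1 differences was not tested. The fitted S1pr1 change was -0.42 without the mouse of node 4 and -0.52 without that of node 1.

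**Figure D3:**
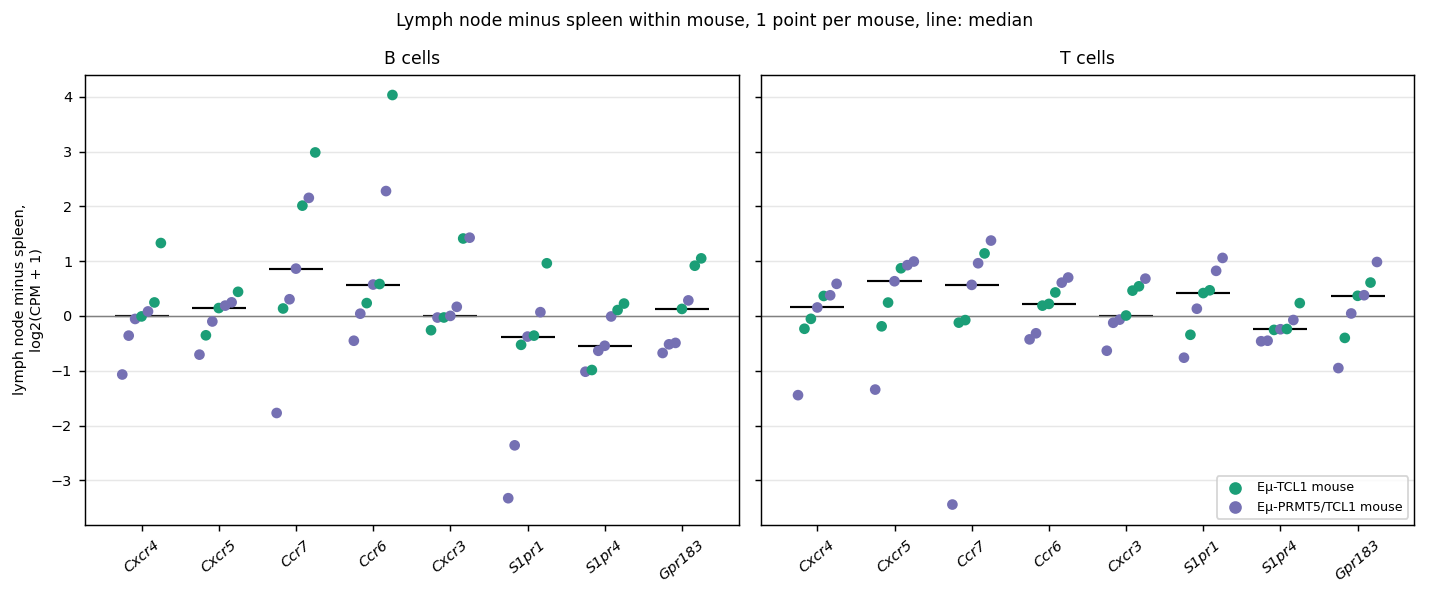
Lymph node minus spleen within mouse (y axis, difference of log2(CPM + 1)) for each receptor (x axis) in B cells (left) and T cells (right). Each point is 1 of 7 mice, green for Eµ-TCL1 and purple for Eµ-PRMT5/TCL1, and the line is the median. In B cells Ccr7 and Ccr6 lie above 0 in 6 of 7 mice, and the lowest S1pr1 point, at -3.33, is the mouse of Eµ-PRMT5/TCL1 node 4.

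Whether the tissue difference differed between the genotypes was tested in the same 14 libraries. In B cells edgeR called 0 members and 0 of 12406 genes (245 genes, 1.97%, and 1 member at an unadjusted p under 0.05), and DESeq2 called 0 of either. The member was Gpr183 (-0.93 ± 0.32, adjusted p = 1), which was higher in the node than in the spleen in the 3 Eµ-TCL1 mice, at 26.4 against 13.5, 27.4 against 24.9 and 55.4 against 26.2 CPM. In the Eµ-PRMT5/TCL1 mice of nodes 1 to 4 it went from 101 to 71.5, 50.3 to 31.1, 24.4 to 29.9 and 48.2 to 33.4 CPM. In T cells the node minus spleen changes of the 7 members tested lay between -0.09 and 0.50, and edgeR called 0 of them and 66 of 11511 genes (0.573%), with 16.3% of genes and 0 members at an unadjusted p under 0.05 and 586 genes and 0 members called by DESeq2. The test of a difference between genotypes in T cells called 0 members and 0 genes by edgeR and by DESeq2, with 2.24% of genes and 0 members at an unadjusted p under 0.05. The largest fall of a receptor in T cells was that of Ccr7 in the mouse of Eµ-PRMT5/TCL1 node 1, from 567 to 51.3 CPM, where the node gave 67 T cells.

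B cells of 1 library were then divided by the heavy chain V gene they carried, a split that uses no receptor gene. Leading-V cells had at least 80% of their Ighv UMIs from the leading gene of the library and other-V cells at most 20%, and a shared V gene does not prove a clone. In all, 5 mice had a leading gene with at least 50% of Ighv UMIs and at least 20 cells of each kind. Lymph nodes 2 and 3 of Eµ-PRMT5/TCL1 also met these limits but come from the mice of spleens 1 and 3, and only the spleen of such a mouse was used. The fitted changes of the 7 members tested were below 0 (median -0.89, against 0.02 over all genes), but by library Cxcr5 and Ccr6 were lower in leading-V cells in only 2 of 5, and the other 5 members in 4 of 5. None of them was called by edgeR (10 of 9659 genes, 0.104%; 495 genes, 5.12%, and 2 members at an unadjusted p under 0.05), and DESeq2 called 0 members and 13 genes. The 2 were S1pr4 (-0.89 ± 0.26, adjusted p = 0.781) and Cxcr4 (-1.09 ± 0.41, adjusted p = 0.949).

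Single libraries showed a large divide. In Eµ-TCL1 lymph node 1, Ccr6 had 1 UMI in 111 leading-V cells (0.976 CPM) and 15 UMIs in 48 other-V cells (67.6 CPM), and Ccr7 stood at 26.4 and 645 CPM. In Eµ-PRMT5 spleen 5, Ccr6 had 0 UMIs in 323 leading-V cells and 13 in 92 other-V cells (28.3 CPM), Ccr7 stood at 46.8 and 592 CPM, and Cxcr4 at 15.8 and 95.8 CPM. Among the divided B cells of these 2 libraries, the levels of Ccr6 and Ccr7 were thus higher in other-V than in leading-V cells. B cells that met neither limit are not counted there. In Eµ-PRMT5/TCL1 spleens 1, 3 and 4 Ccr6 had 6, 4 and 13 UMIs in leading-V cells and 1, 0 and 0 in other-V cells, at most 1.13 CPM. In Eµ-PRMT5/TCL1 spleen 1 Ccr7 was higher in leading-V cells (292 against 44.1 CPM), and in Eµ-PRMT5/TCL1 spleen 4 Gpr183 was (102 against 43.8 CPM). Cxcr5 gave the smallest change (-0.18), at 166 CPM in both kinds of cell in Eµ-PRMT5 spleen 5.

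In Eµ-PRMT5 spleen 3, whose leading gene Ighv6-3 took 31.1% of Ighv UMIs, the 321 leading-V cells carried Ccr6 at 60.0 CPM and the 732 others at 38.9 CPM. There Ccr7 stood at 1368 and 751 CPM, Cxcr4 at 340 and 182 CPM, and Gpr183 at 60.0 and 147 CPM. In this spleen UMIs of Ccr6, Ccr7 and Cxcr4 were thus found in both kinds of cell, and the part of free RNA in them was not tested. Over the 20 libraries free RNA reached 182 CPM for Cxcr4 and 1087 CPM for Ccr7. In Eµ-PRMT5 spleen 2 the 11 leading-V cells held Ccr7 at 165 CPM and Ccr6 at 0, and the 229 others 429 and 13.3 CPM. In Eµ-TCL1 spleen 3 Ccr6 was at 0 in 329 leading-V cells and 0.398 CPM in 707 others. In Eµ-PRMT5 spleen 1, 779 of 1302 B cells were other-V cells, with Ccr6 at 88.0 CPM, 15 were leading-V cells and the rest met neither limit.

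**Figure D4:**
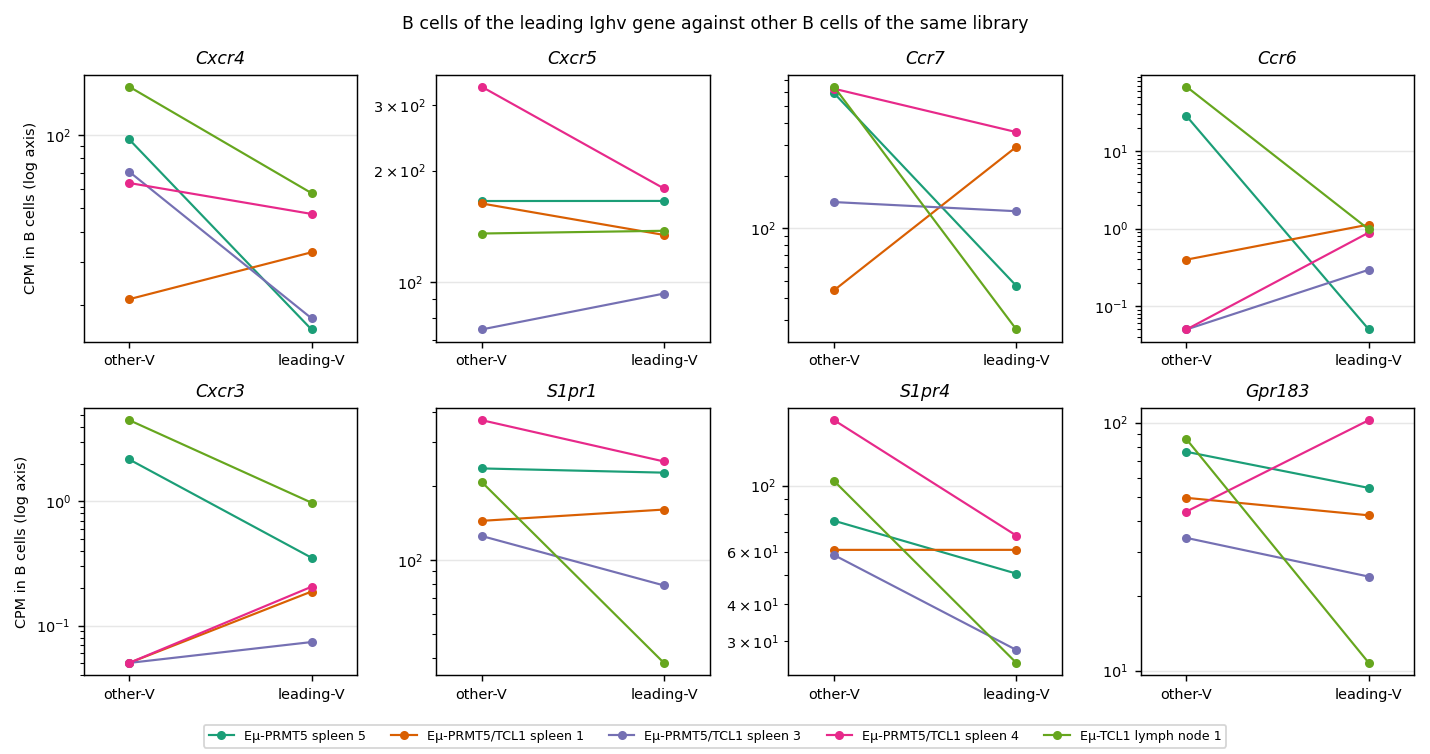
Level of each receptor (y axis, CPM, log scale) in other-V and leading-V B cells (x axis) of the same library, joined by a line for each of 5 libraries; levels under 0.05 CPM are drawn at 0.05. Ccr6 and Ccr7 drop steeply in Eµ-TCL1 lymph node 1 and Eµ-PRMT5 spleen 5, while Ccr7 rises in Eµ-PRMT5/TCL1 spleen 1.

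The genes whose levels ran most like each member over the B cells of the 13 spleens were found by the root mean square (RMS) distance of standardised log2 levels among 7600 genes with a mean of at least 10 CPM; 0 is an identical pattern. S1pr1 ran closest to Klf2 (RMS 0.275), then Cpsf3 and Cmtm6. Ccr6 ran closest to Kdm6b (0.233), Ppil4 and Satb1, and Cxcr5 to Lmbrd1 (0.205), Pias1 and Tmem87b. Gpr183 ran closest to Vbp1 (0.285), Rprd2 and Atg2b, S1pr4 to Dennd6a (0.363), Crybg1 and Atxn2, Ccr7 to Cand1 (0.380), Mob3a and Hilpda, and Cxcr4 to Lrrc8d (0.403), Tcf12 and Chd3. Cxcr3 had a mean under 10 CPM and was left out. Libraries share depth and cell composition over all genes, so likeness is a description with no test.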

How the data were processed

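The authors deposited raw UMI counts per gene and barcode (10x 3′ chemistry), unfiltered and not normalized. The submitters' notes name Cell Ranger 2.0.1, Seurat 2.2.1 and GRCm38; the matrix headers name Cell Ranger 3.1.0. Groups, tissues and mice came from sample titles and labels.

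Barcodes at or above 1/10 of the 99th percentile of the UMIs of the 3000 largest were called cells if they held 200 or more genes and no more than 10% mitochondrial UMIs; Scrublet (scanpy 1.11.5, expected rate 0.8% per 1000 cells) removed 631 of 87773. B and T gates are in the text. The Cd8 gate required a Cd8a or Cd8b1 UMI and no Cd4 UMI, and the Cd4 gate the reverse. Globin-rich cells, planned as background, numbered 11, so cells with at least 10 UMIs of S100a8, S100a9, Mpo, Elane and Prtn3 were used instead, a choice made after seeing the data. Shares used 1000 UMIs drawn per cell (0 cells were too shallow).

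UMIs were summed per library and class and tested with edgeR 4.0.16 (R 4.3.3; TMM, filterByExpr, quasi-likelihood, Benjamini-Hochberg over all genes tested), each comparison using the libraries it names, all 13 spleens sharing 1 fit. Each SE was worked back from the test, as the size of the log2 change divided by the root of its quasi-likelihood F statistic. It is not an error given by the fit itself. CPM were scaled to the UMI total of the class. Scripts were tested on simulated counts. Alternatives were DESeq2 1.42.0, RLE scaling, no low-count filter, doublets kept, stricter gates, immunoglobulin genes left out, Xist as covariate, a looser V gene limit (added later), the replicate block, and each library left out.

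Mouse numbers in the titles pair tissues, and a library pairs its B and T cells. Replicate numbers across genotypes share only a number.

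Named genes were the 8 members, from 4 lists those called (at most 4 per list and comparison, smallest p first), and the 3 genes most like each member; some genes of the lists are not reported here. Single libraries described were chosen after seeing values. Members and lists were chosen with earlier results of these data known. Promoters were RefSeq's.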

Additional observations from a re-analysis of the deposited data

Results flagged for a closer look

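In groups of 4 or 5 libraries, 15 of 64 groups of receptor levels held a library that stood far from the rest by Dixon's criterion. Chance gives about 1 in 20 only for independent, normally distributed values, which low counts are not, and some libraries recur across receptors, so the 15 are not set against that rate. In B cells, Eµ-PRMT5/TCL1 lymph node 3 was high for Ccr6 (5.14 CPM, others 1.13 to 1.70) and for Cxcr3 (1.87 CPM, others 0.122 to 0.189), on 11 Ccr6 UMIs (others 9 to 18) and 4 Cxcr3 UMIs (others 1 or 2); its B cells also had the highest summed neutrophil markers of the 20 libraries (3346 CPM). Gpr183 was high in Eµ-PRMT5/TCL1 lymph node 1 (71.5 CPM, others 29.9 to 33.4), and S1pr4 was low in Eµ-PRMT5 spleen 4 (9.40 CPM, others 47.8 to 59.2).

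In T cells, Eµ-PRMT5 spleen 4, with 57 T cells and summed neutrophil markers of 6977 CPM in them, was low for Cxcr4 (53.8 CPM, others 129 to 153) and Gpr183 (44.8 CPM, others 119 to 146), and Eµ-PRMT5 spleen 5 was high for Cxcr5 (54.5 CPM, others 4.48 to 18.7); it was the only library whose T cells did not lie below their free RNA for Cxcr5 (48.1 CPM). Eµ-PRMT5/TCL1 spleen 4 was high for 5 receptors: Cxcr5 (60.1 CPM, others 7.49 to 13.9), Cxcr3 (195 CPM, others 83.3 to 101), S1pr1 (235 CPM, others 77.7 to 99.5), S1pr4 (176 CPM, others 58.0 to 77.1) and Gpr183 (194 CPM, others 58.0 to 73.4). Lymph node 1 of the same mouse was high for Cxcr3 (313 CPM, others 63.8 to 92.8) and S1pr4 (149 CPM, others 47.8 to 55.7). Ccr6 was high in Eµ-PRMT5/TCL1 spleen 1 (1.87 CPM, others 0 to 0.245), which is 2 UMIs in 178 T cells against 0, 0 and 1 UMI in the others.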

How the results depend on the processing

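The number of members called was equal or close to the main count in 214 of 223 alternative settings. Outside B minus T the main count was 0 in every comparison, where edgeR called at most 66 genes. A count that stays at 0 there says little about stability. DESeq2 called 3 members (and 644 of 11608 genes) for Eµ-PRMT5 against Eµ-TCL1 spleens in B cells. It called 2 members (103 of 11608 genes) for Eµ-PRMT5/TCL1 against Eµ-PRMT5 spleens and 1 (61 of 10913 genes) between the genotypes in nodes. In each of these edgeR called 0 members, and the cause was not tested. Leaving out 1 library gave 0 to 2 members in the first of these, among 1 to 232 genes called. Replicate numbers of the labels are only numbers across genotypes (deviations of same-numbered spleens correlated at -0.0947 to 0.195 over 12 pairs, those of nodes at -0.118 to 0.192 over 3). With them as a replicate block, 1 member was called in the first comparison (Ccr6, adjusted p = 0.0301, edgeR) among 7 genes, and no other count of members changed. That fit also kept only the groups compared and the replicate numbers found in both. It thus lacked Eµ-PRMT5 spleen 5 and the Eµ-PRMT5/TCL1 spleens. Ccr6 was also called when Eµ-PRMT5 spleen 5 alone was left out (adjusted p = 0.0455, edgeR), so the call cannot be credited to the block. For B minus T, 3 members were called in spleens without the library as a block, among 4999 of 10673 genes. In nodes 5 to 8 were called when 1 library was left out, among 5387 to 6221 genes called.

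Changes near 0 turned sign. For lymph node minus spleen in B cells, Cxcr5 was 0.011 with DESeq2, 0.015 with RLE scaling and 0.0064 without immunoglobulin genes. With 1 mouse left out it ran from -0.052 to 0.076, including 0.071 and 0.028. Cxcr4 was -0.058 without the mouse as a block and -0.12 to 0.20 with 1 mouse left out, and Gpr183 -0.074 to 0.27. For leading-V minus other-V, leaving out 1 mouse gave -0.31 to 0.043 for Cxcr5 and -0.78 to 0.022 for Gpr183.

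Depth limits Ccr6 and Cxcr3, which rest on 0 to 7 UMIs in B cells of each Eµ-TCL1 spleen, and T cells of Eµ-PRMT5 spleen 4 and Eµ-PRMT5/TCL1 lymph node 1, which number 57 and 67, as well as Ccr6 in T cells of Eµ-PRMT5/TCL1 spleen 1, with 2 UMIs.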
